A study of Drosophila melanogaster with 2 samples.

Results

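Genes of the cell cycle and of DNA replication were examined for binding of the nuclear receptor dsf (dissatisfaction) in whole Drosophila melanogaster larvae. The members are 32 named genes from a fixed list that was not filtered by any measured value. They were, however, chosen with earlier results of these data known. The annotation holds 13945 protein-coding genes on the nuclear arms (X, 2L, 2R, 3L, 3R and 4). Chromatin immunoprecipitation followed by sequencing (ChIP-seq) had been done, per the labels, with an anti-GFP antibody on a transgenic line that carries dsf with a green fluorescent protein tag at its C-terminus. Both samples are dsf-eGFP larvae at the wandering stage of the third instar, males and females pooled and of unknown age in days, from separate biosamples, and they form 1 group of 2 biological replicates, numbered 3 and 4. No untagged or input sample was analysed here, so no group was compared with another. Whole larvae were used, so weak binding in many cells and strong binding in few cells cannot be told apart.

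Cells enter the cycle when cyclin-dependent kinases free E2F transcription factors from the retinoblastoma protein, and E2F then switches on the genes for S phase. Before that, the origin recognition complex and the loading factor Cdt1 place the Mcm helicase on the DNA, a step called licensing. Mitosis follows once the Cdc25 phosphatase activates Cdk1, and the anaphase-promoting complex ends it. At the wandering stage, imaginal disc and brain cells still divide while most larval tissues are polyploid through endocycles, which copy DNA without mitosis.

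A gene is called bound here by its distance from regions in the authors' thresholded list. The summit of such a region had to lie within 1 kb of one of the gene's transcription start sites (TSS). The threshold came from the irreproducible discovery rate (IDR) procedure, which weighs how alike replicates rank regions. A single region in the list need not rank alike in both replicates. The word bound describes position only. The IDR-thresholded list held 1708 nuclear regions, all of them the strongest of a pooled list of 29975 nuclear regions with background included. Replicate 3 had 29974 such regions of its own and replicate 4 had 29973. As deposited, the pooled list and both replicate lists each held 29999 regions. Having no region in a list thus means none within that length, not an absence of binding. Regions were ranked within each list by their signal value, as the authors deposited it, with 1 the strongest, and mitochondrial regions were left out. The signal value has no stated scale, so it is compared only within a list.

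Of the 32 genes, 10 (31.25%) were bound, against 12.2% of all protein-coding genes (1695 genes). The 10 were spread over every step. G1/S control had 3 of 8 (CycE, dap and E2f1), replication licensing 3 of 11 (Mcm2, Mcm5 and dup), DNA synthesis 1 of 3 (RnrS) and mitosis 3 of 10 (aurA, stg and fzr). Ranked by replicate 4 alone, without replicate 3, the count was 6 against 12.6% of all genes, and all 3 G1/S genes and dup were lost. Ranked by replicate 3 alone, without replicate 4, it was 9 against 11.5%, with E2f1 and Mcm5 lost and Cdk1 gained. There dup counted through a different region at rank 1257, as its own region ranked 1783. These 2 counts used the 1708 strongest nuclear regions of the replicate. Bound members had a median of 1.5 TSS and a median gene length of 3956 bp, unbound members 1 TSS and 2824 bp, and all protein-coding genes 1 TSS and 2166 bp. A gene with more TSS has more room to be called bound, and the part this played was not tested.

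**Figure D1:**
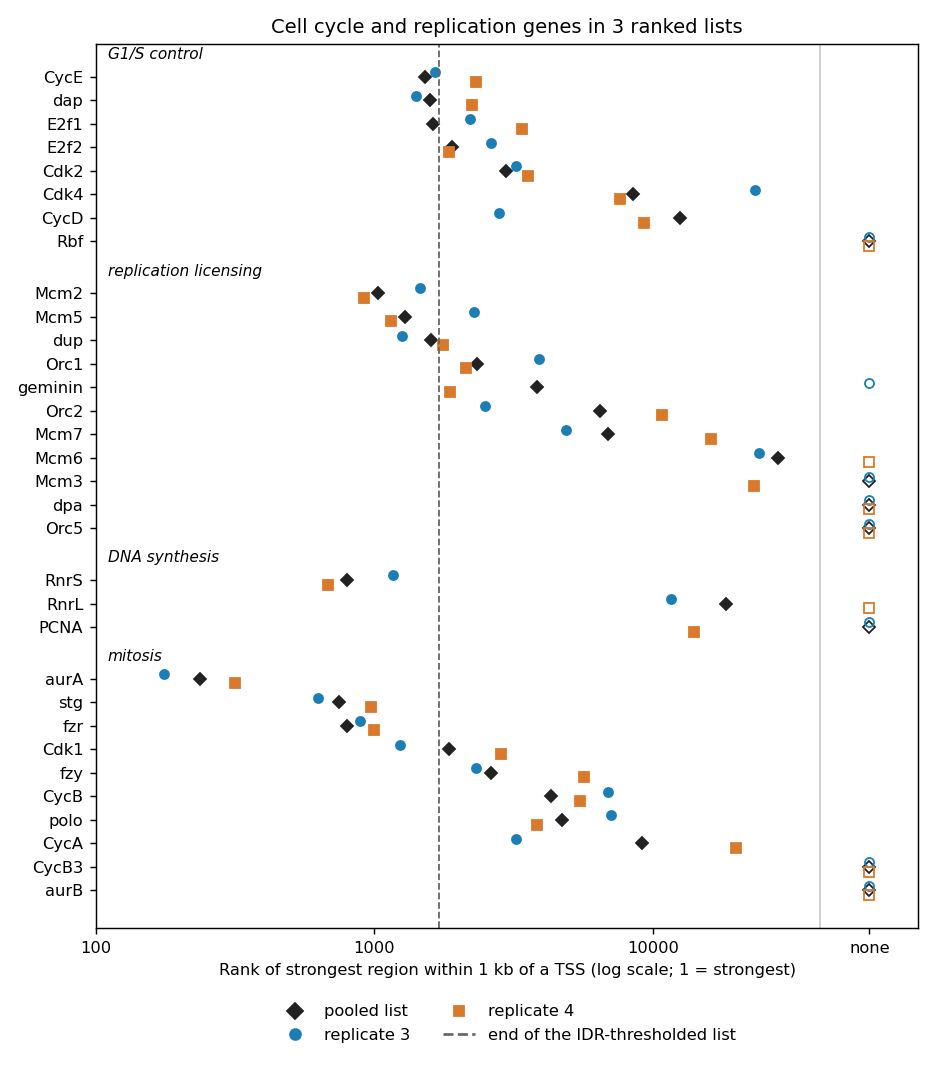
Rank of the strongest region with a summit within 1 kb of a TSS of each of the 32 genes (log axis, 1 the strongest), in the pooled list (diamonds), replicate 3 (circles) and replicate 4 (squares). Open symbols under "none" mark lists with no such region. The dashed line is rank 1708, the end of the IDR-thresholded list. The 10 genes left of it in the pooled list are bound, and aurA lies far ahead of the rest.

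The bound genes sat mostly in the lower part of the IDR-thresholded list. Their strongest regions had signal values of 75.2 to 180.1 with a median of 89.6, against a median of 109.9 for the other 1685 bound protein-coding genes, whose values reached 779. The median rank was 1159 for the 10 genes and 766 for the other bound genes. Only aurA was among the strongest 25% of regions (427 regions), which is 1 of 32 genes against 3.48% of all protein-coding genes. At that stricter limit the share of the listed genes was thus near the background. These differences in rank and signal were not tested.

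Sequence at the summits is shown for 5 bound genes. They give the strongest region (aurA), the Cdc25 gene (stg), the bound member with the highest GC content at its summit (fzr) and both bound Mcm genes. Each run covers 101 bases centred on the summit, 5′ to 3′ on the gene's own strand, from the RefSeq release 6 assembly, which has the coordinates of dm6. Capitals mark matches, on either strand, to any of the words searched. The positions are chr3R:11962861-11962961 on the plus strand for aurA, chr3R:29256288-29256388 on the minus strand for stg, chrX:4677585-4677685 on the minus strand for fzr, chr3R:8264609-8264709 on the plus strand for Mcm2 and chr3R:10788368-10788468 on the plus strand for Mcm5.
aurA: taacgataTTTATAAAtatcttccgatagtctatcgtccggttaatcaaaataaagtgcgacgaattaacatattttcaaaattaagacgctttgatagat
stg: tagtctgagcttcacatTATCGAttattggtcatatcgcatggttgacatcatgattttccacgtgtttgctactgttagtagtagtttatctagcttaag
fzr: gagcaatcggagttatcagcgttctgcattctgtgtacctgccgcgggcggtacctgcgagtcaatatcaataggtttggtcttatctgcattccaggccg
Mcm2: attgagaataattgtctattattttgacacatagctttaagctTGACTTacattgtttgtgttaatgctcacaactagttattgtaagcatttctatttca
Mcm5: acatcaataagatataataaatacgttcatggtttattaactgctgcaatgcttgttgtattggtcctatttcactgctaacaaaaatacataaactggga
The GC content of the 101 bases was 28.7% at aurA, 36.6% at stg, 52.5% at fzr, 27.7% at Mcm2 and 30.7% at Mcm5. After fzr, the highest among the bound genes were dup (45.5%) and dap (44.6%), which are not shown. Over the 10 bound genes the median was 29.7%, against 32.7% over the 1243 promoter regions of the IDR-thresholded list.

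Among the G1/S genes, all 3 bound members were close to the end of the list. CycE encodes the cyclin that drives entry into S phase with Cdk2. Its region (chr2L:15746972-15747375) had a signal value of 77.8 and ranked 1526, with the summit 564 bp upstream of the second of the gene's 3 TSS, in an intron of CycE. The same region had 30.7 and rank 1655 in replicate 3, and 40.9 and rank 2322 in replicate 4. Thus replicate 3 placed it inside its strongest 1708 regions and replicate 4 outside. The gene dap encodes the inhibitor of CycE and Cdk2 kinase. Its region (chr2R:9712170-9712573) had a signal value of 76.3, ranked 1583 and was the one of the 10 with its summit downstream of the TSS, by 51 bp, in the 5′ untranslated region. Replicate 3 gave it 32.9 and rank 1415, replicate 4 gave it 41.7 and rank 2236, so again only replicate 3 held it among its strongest. E2f1 encodes the activating E2F factor. Its region (chr3R:21633203-21633606) ranked 1628 with a signal value of 75.2, and its summit was 332 bp upstream of the fourth of 5 TSS, in an intron of E2f1. It was at rank 2210 in replicate 3 (signal value 26.6) and 3401 in replicate 4 (34.0), and so was among the strongest 1708 of neither.

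The other G1/S genes fell outside the list at varied distance. E2f2, the gene of the repressing E2F factor, came nearest. Its strongest pooled region within 1 kb of a TSS ranked 1905 with a signal value of 69.4, at 2626 in replicate 3 and 1858 in replicate 4. Cdk2, the kinase partner of CycE, had ranks of 2963 in the pooled list, 3232 in replicate 3 and 3573 in replicate 4, so both replicates placed it at a similar depth. The CycD kinase Cdk4 and CycD itself were lower in the pooled list, at 8505 and 12536. CycD ranked 2810 in replicate 3, ahead of Cdk2 there, and 9270 in replicate 4. Cdk4 ranked 23261 in replicate 3 and 7626 in replicate 4, so for both genes the replicates placed the regions far apart. Rbf, the retinoblastoma gene, had no region within 1 kb of a TSS in the pooled list or in either replicate.

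Of the licensing genes, the bound ones were a pair of helicase subunits and the Cdt1 gene. Mcm2 had a region (chr3R:8264457-8264860) with a signal value of 94.2 and rank 1028. Its summit lay between Mcm2, 311 bp upstream of it, and RPA1, 208 bp upstream of it on the opposite strand, where RPA1 encodes the large subunit of the single-stranded DNA binding protein RPA. Replicate 3 had the region at rank 1459 with a signal value of 32.4. Replicate 4 had no summit within 100 bp, the limit used to match regions, but its strongest region near Mcm2 lay 103 bp away with rank 917 and a signal value of 62.6. Mcm5 had a region (chr3R:10788216-10788619) with a signal value of 84.9 and rank 1290, and its summit was 106 bp upstream of Mcm5 and 192 bp upstream of Art1, an arginine methyltransferase gene on the other strand. The replicates placed it apart, with 26.3 and rank 2272 in replicate 3, and 56.2 and rank 1150 in replicate 4. The dup gene encodes fly Cdt1, which loads the helicase. Its region (chr2R:15380505-15380908) ranked 1598 with a signal value of 75.8, with the summit 93 bp upstream of the second of 2 TSS of dup, in the 5′ untranslated region of the longer transcripts, and 17 bp upstream of SRPK, an SR protein kinase gene. It was just outside the strongest 1708 in both replicates, at rank 1783 in replicate 3 (signal value 29.5) and 1763 in replicate 4 (46.6). Replicate 3 had a different and stronger region, 378 bp upstream of the first TSS of dup, at rank 1257. It is not shown to belong to the dup promoter.

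The other 4 helicase genes were not bound. Mcm7 had its best pooled region at rank 6915, with 4886 in replicate 3 and 16185 in replicate 4. Mcm6 was at 28237 in the pooled list, while Mcm3 and dpa, the Mcm4 gene, had none in the pooled list. Of the origin recognition genes, Orc1 came nearest to the limit in the pooled list, at 2338 with a signal value of 61.9, 3892 in replicate 3 and 2126 in replicate 4. Orc2 was at 6464 in the pooled list, but at 2497 in replicate 3, ahead of Orc1 there, and at 10780 in replicate 4. Orc5 had no region in any of the 3 lists. The geminin gene, whose product blocks Cdt1, was at rank 1862 in replicate 4 with its summit 33 bp upstream of a TSS, had no region within 1 kb in replicate 3, and stood at 3845 in the pooled list. The 6 helicase genes therefore differed in this position call, although their proteins act as a single ring. The summits at Mcm2 and Mcm5 are shared with RPA1 and Art1, so the calls cannot be assigned to the helicase genes alone.

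DNA synthesis was represented by RnrS, the small subunit of ribonucleotide reductase, which makes deoxynucleotides. Its region (chr2R:11985355-11985758) had a signal value of 108 and rank 795, with the summit 164 bp upstream of RnrS and 451 bp upstream of CG34231 on the opposite strand. Both replicates held it among their strongest, with 36.4 and rank 1164 in replicate 3, and 71.6 and rank 683 in replicate 4. RnrL, the large subunit, differed, with rank 18254 in the pooled list, 11587 in replicate 3 and no region in replicate 4. The pooled summit was 762 bp downstream of the TSS and the replicate 3 summit 63 bp upstream, so those were different regions. PCNA, the sliding clamp of DNA polymerase, had a region within 1 kb only in replicate 4, at rank 14102.

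Among the bound members, the mitotic genes included the strongest regions. Aurora A, the kinase of centrosomes and spindle poles, is encoded by aurA, whose region (chr3R:11962709-11963112) had a signal value of 180.1 and rank 236. Its summit was 213 bp upstream of aurA and 106 bp upstream of CG3281 on the opposite strand. Replicate 3 ranked it 175 with a signal value of 83.7 and replicate 4 ranked it 317 with 96.4. A second region (chr3R:11962913-11963316), with its summit 9 bp upstream of the aurA TSS, had a signal value of 89.3 and rank 1153. This second region overlaps the first, so the summits are not shown to be separate sites. The second region had rank 741 in replicate 4 and no match within 100 bp in replicate 3. Thus aurA was the one member with more than 1 summit at its promoter, and the weaker of them rested on replicate 4. The Cdc25 phosphatase gene stg had a region (chr3R:29256136-29256539) with a signal value of 112 and rank 746, and ranks of 626 in replicate 3 and 973 in replicate 4, with signal values of 50.1 in replicate 3 and 60.9 in replicate 4. The summit was 538 bp upstream of stg but only 147 bp upstream of CG45544 on the other strand. The remaining one, fzr, encodes the Cdh1 activator of the anaphase-promoting complex, which is needed for endocycles. Its region (chrX:4677433-4677836) had a signal value of 107 and rank 799, with 886 in replicate 3 and 993 in replicate 4 (signal values 42.0 and 60.4). The summit was 102 bp upstream of the second of 2 TSS of fzr, in an intron of the longer transcripts, and no other gene had a TSS within 1 kb.

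The other 7 mitotic genes were not bound. In the pooled list Cdk1 was the closest to the limit of all unbound members, with rank 1857 and a signal value of 70.3, and it had rank 1235 in replicate 3 and 2859 in replicate 4. The anaphase activator gene fzy, the Cdc20 of the fly, had ranks of 2629, 2317 and 5674 in the pooled list, replicate 3 and replicate 4. CycB was at 4317 and the mitotic kinase gene polo at 4700 in the pooled list. CycA, which acts in both S phase and mitosis, had rank 3214 in replicate 3 but 19942 in replicate 4, so the replicates placed it far apart. CycB3 and aurB, the gene of Aurora B, had no region in any of the 3 lists.

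Several members lay close to the IDR limit on either side. The lowest nuclear region in the list had a signal value of 73.5. Just inside were dap (76.3), dup (75.8) and E2f1 (75.2), and just outside were Cdk1 (70.3) and E2f2 (69.4), with Orc1 next (61.9). Without the limit, 25 of 32 genes had a pooled region within 1 kb of a TSS, against 49.2% of all protein-coding genes. Of the 7 others, 5 had no region in either replicate as well, namely CycB3, Rbf, dpa, Orc5 and aurB.

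Agreement between replicates was uneven across the 10. Within 100 bp of the summit, replicate 3 had a region for all 10 and replicate 4 for 9, the exception being Mcm2. Among the other bound protein-coding genes these shares were 86.2% in replicate 3 and 95.9% in replicate 4. Both replicates held aurA, stg, fzr and RnrS among their 1708 strongest regions, which is 4 of 10 against 57.5% of the other bound genes. Another 4 (CycE, dap, Mcm2 and Mcm5) were among the strongest of 1 replicate, and E2f1 and dup of neither. Replicate 4 held 5 of 10 at that depth, against 78.3% of the other bound genes, and replicate 3 held 7 of 10 against 74.4%. None of these gaps was tested. Because the IDR-thresholded list consists of the strongest pooled regions, the overlap with each replicate is partly built in.

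**Figure D2:**
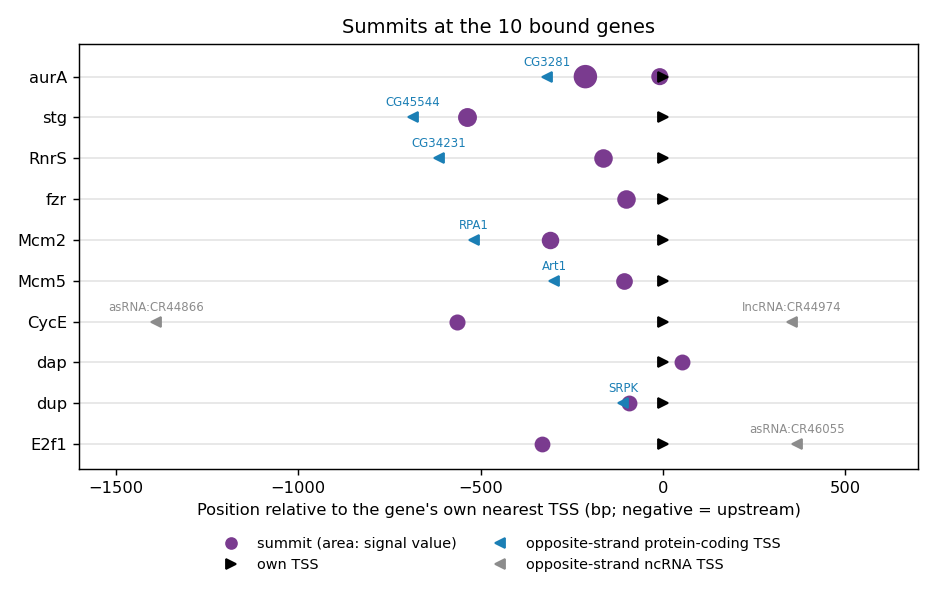
Position of each IDR-thresholded summit (circles, area in proportion to the signal value) relative to the nearest TSS of the bound gene (black triangles at 0), in bp along the gene's own strand, with the TSS of other genes within 1 kb of the same summit. Blue triangles are protein-coding genes and grey ones are non-coding RNA genes, all on the opposite strand. For 6 of the 10 genes the summit lies between a pair of divergent protein-coding TSS. Of the strongest summits of the 10 genes, 9 are upstream of the gene's nearest TSS, which can lie inside the gene.

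Most of the regions could not be assigned to the cell cycle gene alone. At 6 of the 10 genes (aurA, stg, RnrS, Mcm2, Mcm5 and dup) a protein-coding gene on the opposite strand had a TSS within 1 kb of the same summit, and at 4 of them (aurA, stg, Mcm2 and dup) that TSS was the nearer one. Among the other 1685 bound protein-coding genes, 66.8% had such an opposite-strand TSS within 1 kb. Counted on either strand, another protein-coding gene had the nearer TSS for 34.5% of them and for 4 of the 10 members. The pattern was thus common to bound genes in general and is not shown to be particular to these. Head-to-head arrangement, with an opposite-strand protein-coding TSS upstream within 1 kb, was found for 6 of 10 bound members, 10 of 22 unbound members and 36.2% of all protein-coding genes. CycE, E2f1, fzr and dap were the 4 with no other protein-coding TSS within 1 kb of the summit. At CycE and E2f1 the only other TSS in reach were of non-coding RNAs.

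In the annotation 5 of the 10 summits were intergenic, 3 were in an intron of the bound gene itself (CycE, E2f1 and fzr) and 2 were in a 5′ untranslated region (dap and dup). The summits lay a median of 188.5 bp upstream of the gene's nearest TSS, against 138 bp upstream for the other bound protein-coding genes, and 5 of the 10 were within 200 bp of it against 61.2%.

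E2F and DREF, the factor that binds the DNA replication-related element (DRE), are the known regulators of many of these promoters in the fly. Promoters were searched from 250 bases before to 50 bases after each TSS, on both strands, and a gene counted when any of its TSS held the word. The E2F word TTTGGCGC was found in 9 of 32 genes (28.1%), against 3.16% of all protein-coding genes and 3.78% of the bound ones. It was in 3 of 10 bound members (CycE, dup and stg) and 6 of 22 unbound members (CycB, Mcm6, Orc1, Orc5, RnrL and dpa). The share of members with this word thus did not separate bound from unbound ones. The second E2F word, TTTCCCGC, was in 3 members against 1.99% of all genes, and the third, GGCGGGAA, which can overlap the second by its reverse complement, was in 3 against 1.19%. These shares were not tested.

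The DRE gave another picture. The full element TATCGATA was in the promoters of none of the 10 bound members and of 6 of the 22 unbound members (Cdk2, Cdk4, CycA, Orc2, Orc5 and PCNA), against 10.2% of all protein-coding genes. Among all bound protein-coding genes it was in 18.8%. Its core TATCGA, which the full element contains, was in 3 of 10 bound members (E2f1, Mcm5 and dap), in 8 of 22 unbound ones, in 31.3% of all and in 47.6% of bound genes. With 10 bound members, a difference of a few genes cannot be read as a pattern.

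**Figure D3:**
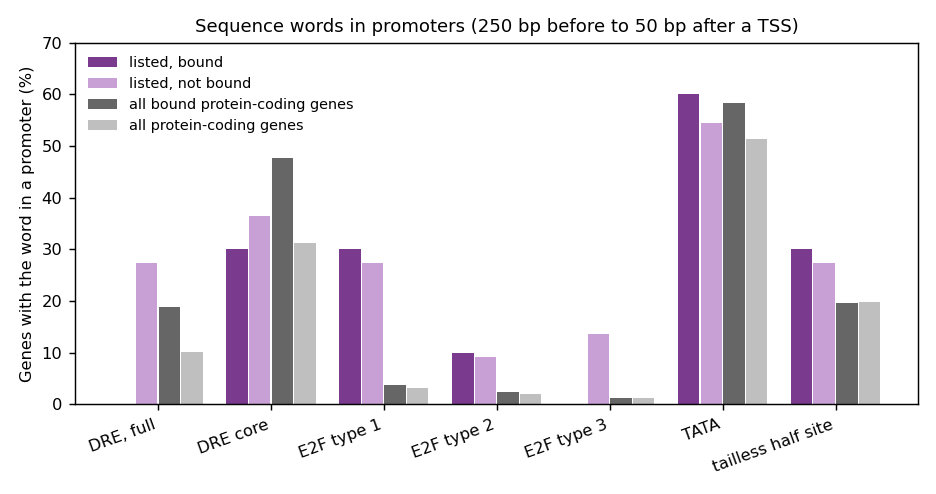
Share of genes (%) with each sequence word in a promoter (250 bases before to 50 after any TSS, either strand), for the listed genes that were bound (10) or not bound (22), all bound protein-coding genes (1695) and all protein-coding genes (13945). The first E2F word is in 3 of 10 bound and 6 of 22 unbound listed genes, against 3.16% of all protein-coding genes, and the full DRE is in 0 of the bound listed genes.

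At the summits themselves, within 50 bp on either side, few words were present. No bound member had any of the 3 E2F words or the full DRE there, where 0.322%, 0.0805%, 0.161% and 4.59% of the 1243 promoter regions of the IDR-thresholded list held them. In CycE and stg the E2F word TTTGGCGC began 114 bp and 13 bp upstream of the TSS and was 450 bp and 525 bp from the summit, so word and summit were at separate places in those promoters. In dup it was 71 bp from the summit. The DRE core was at 1 summit, that of stg, 28 bp from it, against 12.4% of promoter regions. The TATA word TATAAA was at 2 (aurA, where it overlaps its own reverse complement in the run TTTATAAA printed above, and RnrS), against 23.3%. AAGTCA, a core word known to be recognised by receptors of the tailless group to which dsf belongs, was at 1 of 10 summits, that of Mcm2, where the nearest base lay 2 bp from the summit, against 5.15% of promoter regions. That match is in the capitals of the Mcm2 sequence above, on the opposite strand. The word began 318 bp upstream of the Mcm2 TSS. In replicate 4 the strongest summit near Mcm2 was 208 bp upstream, so the word was not within 50 bp of that summit. In the promoters searched above, AAGTCA was in 3 of 10 bound members (CycE, E2f1 and aurA) and 6 of 22 unbound ones. It was in 19.5% of all bound protein-coding genes and 19.9% of all protein-coding genes.

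A wider set of 104 further cell cycle genes was examined with the same call, and 22 (21.2%) were bound against the 12.2% of all protein-coding genes. Further G1/S genes had 5 of 14 bound (35.7%). With a limit of 500 bp the group had 3 of 14 (21.4%), against 10.9% of all protein-coding genes. Of the bound ones, only Dp was the gene with the TSS nearest to the summit. Rbf2, the second retinoblastoma gene of the fly, had a signal value of 219 and rank 132, with its summit 109 bp upstream. SkpA, a subunit of the SCF ubiquitin ligase, had 169.7 and rank 277, with its summit 974 bp upstream. Dp, the partner of E2F, had 126 and rank 568. The other 2 were mip40 (96.0) and lin-52 (92.4), both of the dREAM complex that works with E2F and the retinoblastoma proteins. Hence Dp and Rbf2 were bound while Rbf itself had no region in any list.

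Origin licensing and firing beyond the listed genes had 1 of 13 bound (7.69%), below the 12.2% of all protein-coding genes. The bound one was chif, the Dbf4-type activator of the Cdc7 kinase, with a signal value of 211 and rank 145, its summit 918 bp upstream of a TSS. The replication fork and synthesis group had 5 of 22 (22.7%, against 12.2%). They were dUTPase, which keeps uracil out of DNA (158), the primase subunit gene Prim1 (119), the polymerase delta gene PolD1 (107), RPA1 through the summit it shares with Mcm2, and Fen1, a flap endonuclease gene (75.3). The checkpoint and G2/M group had 4 of 12 (33.3%, against 12.2%). These were gwl, the Greatwall kinase gene (110.3), lok, the Chk2 gene (84.5), grp, the Chk1 gene (75.9), and endos, the Greatwall substrate (75.1).

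Genes of the spindle checkpoint and anaphase had 2 of 19 bound (10.5%), a share near the 12.2% of all protein-coding genes. They were Cdc16 (signal value 125), a subunit of the anaphase-promoting complex, and vih (85.0), its ubiquitin-conjugating enzyme. Chromosome structure and cytokinesis had 5 of 24 (20.8%, against 12.2%). With so few genes in each group, these shares are given as a description. The cohesin subunit gene SA1 had 153, the passenger complex gene Incenp 111, the centriole kinase gene SAK 90.3, the condensin gene barr 84.5 and the cytokinesis gene tum 80.0. The summit near barr is the same one that called lok bound, at rank 1307, 118 bp upstream of barr and 327 bp upstream of lok. At 12 of the 22 genes the TSS nearest to the summit belonged to a gene that was not the named one, so here too the position does not single out the cell cycle gene.

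**Figure D4:**
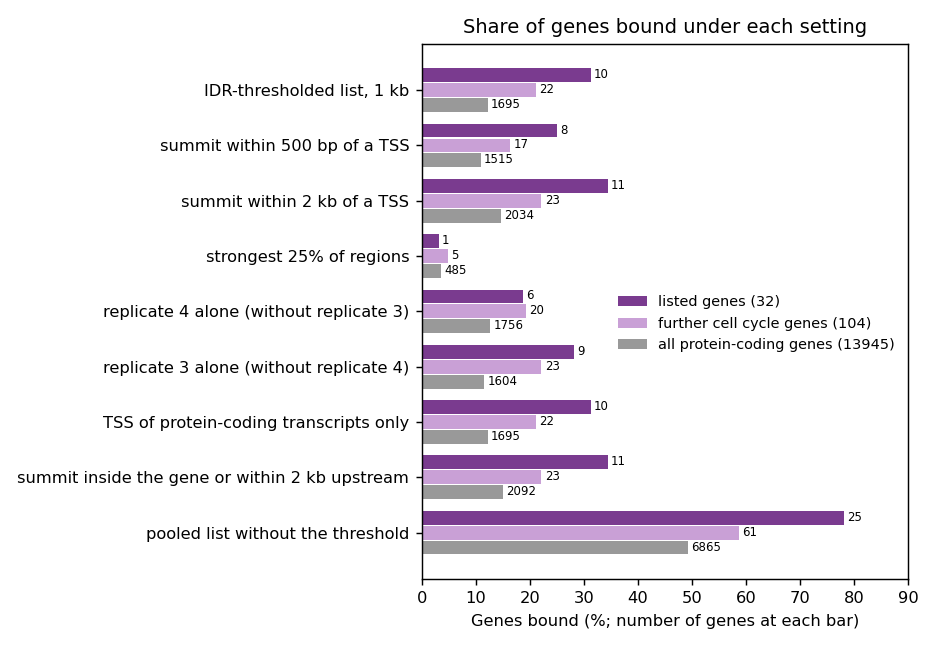
Share of genes bound (%) among the 32 listed genes, the 104 further cell cycle genes and all 13945 protein-coding genes, under each way of calling, with the number of genes at each bar. The listed genes are above all protein-coding genes in every setting except the strongest 25% of regions, where 1 listed gene is left.

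How far the count depends on the call was examined over 8 other settings. With a limit of 500 bp, 8 listed genes were bound against 10.9% of all protein-coding genes, since CycE and stg were lost. Of the further genes, 17 of 104 (16.3%) were bound at that limit. With 2 kb, 11 were bound against 14.6%, the addition being E2f2, and when a summit inside the gene body or up to 2 kb ahead of it counted, it was the same 11 against 15.0%. Counting only the TSS of protein-coding transcripts changed nothing, with 10 genes against 12.2%.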

How the data were processed

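Peak lists of 2 biological replicates on dm6 were used. The regions and their signal values are the authors', as deposited: each replicate list derives from that replicate's alignments and 1 further file shared by both, the pooled list from both alignments and that file, and the IDR-thresholded list from the 3 lists, per the deposited file descriptions. The aligner, the peak caller and their versions were not stated in any source used here. Lists on dm3 were not used. The files hold no read counts, so depth is unknown and no value has a depth-based error.

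Genes and TSS came from Ensembl release 115, sequences from the RefSeq release 6 assembly, whose arm lengths contain all regions. Summits are column 2 plus column 10, written counting from 1. All 32 symbols matched. Of 104 further genes, 101 matched by symbol and 3 by synonym. Calls, ranks, matches (summits within 100 bp) and word searches were made in Python 3.11.15 with pandas 2.3.3, and the calling step was tested on simulated data. No test was run, as 1 group has no contrast. Every listed gene is accounted for, bound further genes are named, and other genes only where they share a summit with a member. Members, lists and settings were chosen with earlier results of these data known.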

Additional observations from a re-analysis of the deposited data

How the results depend on the processing

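Counts were recomputed under each alternative, and a count was taken as stable when it stayed within 1.5 times its value. Over all settings, 46 counts were stable and 15 were not. The strongest 25% of regions left 1 listed gene bound, with 0 in G1/S control, 0 in licensing, 0 in DNA synthesis and 1 in mitosis, 5 of the further genes and 485 protein-coding genes, since fewer regions were used. The pooled list without the limit gave 25 listed genes. Leaving out a replicate gave 6 to 9 listed genes, with 0 to 2 in G1/S control, 2 to 2 in licensing, 1 to 1 in DNA synthesis, 3 to 4 in mitosis, 20 to 23 further genes and 1604 to 1756 protein-coding genes. CycE and dap were among the strongest regions of replicate 3 alone, and E2f1 of neither replicate. The region of dup was also among those of neither, and dup counted in replicate 3 through a different region. With summits matched within 50 bp, 5 bound members were found in both replicates (9 at 100 bp, 10 at 250 bp) and 2 were among the strongest of both (4 at 100 bp, 5 at 250 bp). With 100 bp on either side of the summit, 2 of 10 members held TATCGA against 23.5% of promoter regions, 1 held TTTGGCGC against 1.13%, and 4 held TATAAA against 38.9%. Ranks of the bound members in a replicate did not move in 34 of 34 matches, and where the narrower limit left no match there was no rank. A changed limit can alter a rank only by matching a different region, so unmoved ranks do not show stability. Those 34 cover only members matched at 100 bp. Mcm2 in replicate 4 is not among them, as it had no match at 100 bp and rank 917 at 250 bp. No paired analysis was possible because there is 1 group. The cause of these shifts was not tested beyond the size of the lists. Depth is unknown, and no control sample was analysed here.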
